A study of Mus musculus with 6 samples.

Results

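The Sp, Klf and Egr genes encode transcription factors that bind DNA through a block of C2H2 zinc fingers near the end of the protein. All 30 genes named Sp1 to Sp9, Klf1 to Klf17 and Egr1 to Egr4 were looked for among the array's probe sets, by exact gene symbol in the platform annotation. They were found for 27 genes, through 65 of 45101 probe sets, among 18194 genes named in all. Sp2, Sp9 and Klf8 were matched to no probe set and were not analysed here. The families were taken whole, but they were chosen on results of this same comparison, in which Sp6 was already known to stand among the largest falls. The differences below are therefore a description of these genes, and no support is drawn from them for the families as a group.

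The RNA came from epithelium of the gonadal primordium, part of the urogenital ridge, cut by laser microdissection from mouse fetuses at E10.5. There were 3 wild-type (+/+) and 3 Emx2 KO (-/-) pools, each made from 3 fetuses and run on its own array. Emx2 is a homeobox gene needed for the kidneys and gonads to form. Some sections were stained for GATA4 to find the primordium. The labels name no further allele, agent, strain or sex, and do not say whether pools shared litters, so p-values measure the spread between these pools. The comparison asked which transcripts change in the epithelium upon loss of Emx2.

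The deposited intensities were not at a common level between arrays, so each array was scaled to the same trimmed mean, very low values were raised to a floor of 7.99, and log2 was taken. Differences are KO minus wild-type on that log2 scale, from limma fitted to all 27022 probe sets that remained after the dimmest 40% were left out. A probe set is called where its p-value, adjusted over all tested probe sets, is under 0.05, and only called probe sets are said to rise or fall. An intensity of 26.4 marks the limit under which a probe set was left out as dim, and it applies to its mean over all pools. Where 3 values stand against 3 others, those before "against" are wild-type replicates 1, 2 and 3 and those after it KO replicates 1, 2 and 3. Intensities of different probe sets are not comparable as levels, since each probe set has its own sensitivity.

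Facts of the whole series bear on every value below. Correlations of log2 intensity across probe sets ran from 0.977 to 0.983 within a group and from 0.964 to 0.972 between groups. The probe set of Emx2 read 1300, 2120 and 1730 against 1680, 1480 and 1750, so it does not check the labels, and KO means the pools labelled so. Markers of sex separated the same pools: Xist read between 13.3 and 69.9 in wild-type and between 9320 and 9890 in KO pools, and the 3 Y-linked genes read fell. Genotype and the sex of the pooled fetuses cannot be told apart here. In RNA from tissue, fewer cells of a type and less RNA per cell cannot be told apart either. Defining genes of the labelled tissue were bright in both groups (Lhx9, 5730 to 6870; Upk3b, 2680 to 3430), and Msln, a mesothelial antigen, was dim in all pools (1.34 to 18.7).

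Sp and Klf proteins recognise GC boxes and CACCC boxes, short GC-rich elements in the promoters of a very large number of genes. Sp1, Sp3 and Sp4 are widespread activators, whereas Sp5 to Sp9 are expressed in restricted places in the embryo, Sp5 being a target of Wnt/beta-catenin signalling and Sp6 and Sp8 acting in limb and tooth ectoderm. Klf factors fall into repressors that bind the corepressor CtBP (Klf3, Klf8 and Klf12), activators (among them Klf1, Klf2, Klf4, Klf5, Klf6 and Klf7) and factors that bind Sin3A (Klf9, Klf10, Klf11, Klf13, Klf14 and Klf16). Egr factors are switched on within minutes by growth factors and by handling of cells, and bind GC-rich sites of their own.

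The promoters of the called genes are shown because these genes encode factors that bind GC and CACCC boxes, and because Sp5 is a known Wnt target. Each is 250 bases before to 50 after the transcript start, from RefSeq on build GRCm38.p6, written 5′ to 3′ on the gene's own strand. Capitals mark the GC box (GGGCGG), the CACCC box (CACCC) and the LEF/TCF core (CTTTGA), each searched on both strands, so that GGGTG marks a CACCC box on the other strand. Sp5 lies on the plus strand at chr2:70474673-70474972, Klf9 on the plus strand at chr19:23140976-23141275, Klf12 on the minus strand at chr14:100149747-100150046 and Klf6 on the plus strand at chr13:5861239-5861538. Sp6 has no entry.
Sp5: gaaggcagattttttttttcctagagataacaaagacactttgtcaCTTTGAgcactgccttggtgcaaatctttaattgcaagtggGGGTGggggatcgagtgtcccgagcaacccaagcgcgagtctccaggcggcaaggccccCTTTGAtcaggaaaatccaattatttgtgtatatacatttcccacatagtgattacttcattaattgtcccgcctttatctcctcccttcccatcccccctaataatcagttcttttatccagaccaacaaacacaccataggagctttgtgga
Klf9: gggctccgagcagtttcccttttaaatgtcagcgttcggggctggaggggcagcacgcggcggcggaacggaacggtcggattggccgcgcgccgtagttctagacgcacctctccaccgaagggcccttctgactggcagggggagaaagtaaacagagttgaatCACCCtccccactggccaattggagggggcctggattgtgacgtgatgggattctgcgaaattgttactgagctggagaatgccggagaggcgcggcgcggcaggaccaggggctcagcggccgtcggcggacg
Klf12: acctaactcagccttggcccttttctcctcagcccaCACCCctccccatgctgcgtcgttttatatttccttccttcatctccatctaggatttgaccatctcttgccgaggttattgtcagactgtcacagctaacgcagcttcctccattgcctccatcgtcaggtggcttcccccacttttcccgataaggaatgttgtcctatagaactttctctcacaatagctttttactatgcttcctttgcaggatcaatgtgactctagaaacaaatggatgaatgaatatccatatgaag
Klf6: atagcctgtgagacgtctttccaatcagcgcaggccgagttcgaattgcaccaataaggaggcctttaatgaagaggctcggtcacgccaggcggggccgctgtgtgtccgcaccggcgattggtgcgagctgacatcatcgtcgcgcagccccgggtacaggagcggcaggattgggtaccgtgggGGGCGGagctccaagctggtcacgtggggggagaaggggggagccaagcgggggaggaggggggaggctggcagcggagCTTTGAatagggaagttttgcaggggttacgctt

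In the Sp5 window the LEF/TCF core occurred 2 times and the CACCC box 1 time, with no GC box. The Klf9 and Klf12 windows each held 1 CACCC box, and the Klf6 window 1 GC box and 1 LEF/TCF core. Of 32851 promoters of the same length in that table, 35.7% held a GC box, 57.5% a CACCC box and 16% a LEF/TCF core. The table listed 32 promoters for 22 of the 30 genes, and of these 62.5%, 81.2% and 12.5% held the same 3 motifs. Some genes, such as Egr2, Sp2 and Sp8, have more than 1 window, and some Egr2 windows overlap, so the 32 are not independent. Sp2, Sp9 and Klf8, matched to no probe set, are among them. A homeodomain core (TAATTA, the kind of site Emx2 binds) was searched as well and stood in 1 of the 32, against 5.29% of all promoters. Their median GC content was 60.5%, against 52.7% over all promoters, and the GC and CACCC boxes are GC-rich. A match is a stretch of letters, and whether any factor sits there was not measured.

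Of the 65 probe sets, 43 passed the filter on dim values and were tested, covering 22 genes, and 22 were not tested. Called were 6 (14.0% of those tested), 3 higher and 3 lower in KO, against a background of 4.68% of all tested probe sets called, 2.75% higher and 1.93% lower. That background is 742 higher and 522 lower probe sets, and it was 579 higher and 267 lower with values as deposited (68.4% higher). Because the families were picked with this comparison known, nothing is read from that excess. Sp5, Sp6 and Klf9 fell, Klf12 (by 2 probe sets) and Klf6 rose, and the other 17 tested genes had no called probe set. The groups did not overlap in 12 of the 43 (27.9%), against 22.0% of all tested probe sets. The median log2 fold change was 0.12 over the 43 and 0.01 over all tested probe sets, and the median size of change 0.23 and 0.18.

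**Figure D1:**
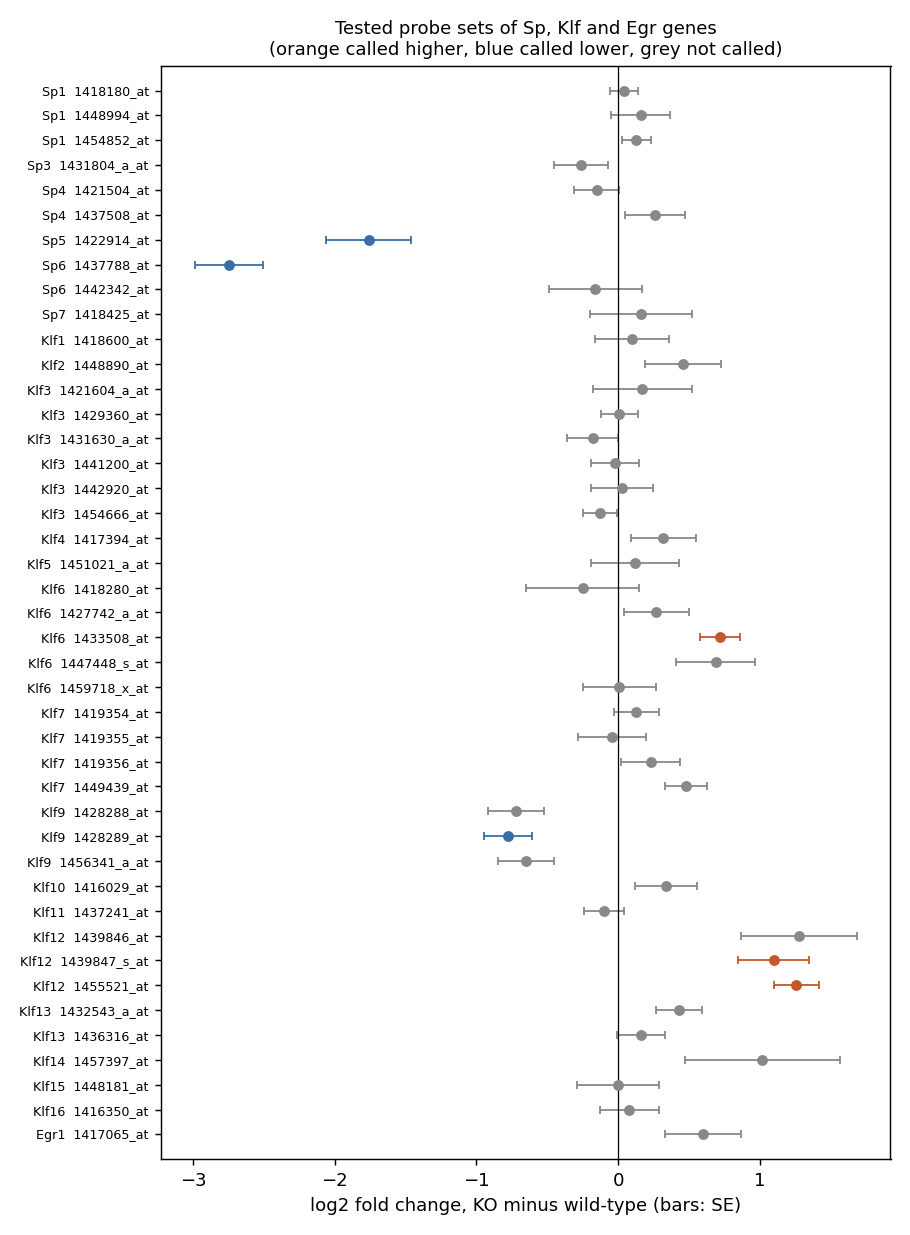
Log2 fold change (KO minus wild-type, horizontal axis) of each of the 43 tested probe sets of Sp, Klf and Egr genes, with bars of 1 SE. Points run from −2.75 for Sp6 to 1.28 for a Klf12 probe set, and 6 of them are coloured as called, 3 higher (orange) and 3 lower (blue).

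Among the Sp factors, the widespread members had no called probe set. Of the restricted members, Sp5 and Sp6 fell, Sp7 was tested and not called, Sp8 was not tested and Sp9 had no probe set. At its responsive probe set (1437788_at) Sp6, a factor needed for tooth and hair formation, read 174, 189 and 185 against 26.8, 21.4 and 35.1. Every KO pool lay far under every wild-type pool. The means were 183 ± 7.83 and 27.8 ± 6.90 (SD, n = 3 each), a log2 fold change of −2.75 (SE 0.24), 6.71-fold lower in KO. This probe set was called, and since its fall was the known result, no p-value is attached to it. Its log2 fold change lay between −2.93 and −2.19 over the alternatives in which it was tested, given as a description. It was not tested where more of the dimmest probe sets were left out. Sp6 was also not tested with the mean of all its probe sets, so that alternative gives no reading of the fall.

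The other Sp6 probe sets did not show this fall. One of them, 1442342_at, read 33.2, 25.2 and 36.6 against 21.5, 28.3 and 36.1 (−0.16, SE 0.33, adjusted p = 0.863), around the dim limit throughout. The other 2 lay under the floor in all 6 pools, at 5.3 or less, and were not tested. The files do not say which part of the transcript each probe set reads. The fall of Sp6 therefore rests on 1 of 4 probe sets.

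Sp5, a transcriptional repressor in the Wnt pathway, has 1 probe set, which read 70.8, 84.6 and 87.2 against 32.0, 16.5 and 25.5. The groups were clearly apart. The means were 80.9 ± 8.81 and 24.7 ± 7.76 (log2 fold change −1.76, SE 0.30, adjusted p = 0.00434), 3.39-fold lower in KO. Since the KO mean lay under the dim limit, the size is less certain than the direction: it was −1.46 with a floor at the 40th percentile and −1.27 with a pseudocount of 16 in place of the floor. The call held with each pool left out in turn, and was lost with no filter on dim values (adjusted p = 0.122).

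The broadly expressed Sp1, Sp3 and Sp4 had 6 tested probe sets, and none was called. Sp1, which drives a great many housekeeping promoters, read between 3180 and 3950 in wild-type and between 3450 and 3920 in KO pools at its brightest probe set (0.04, SE 0.10, adjusted p = 0.882). Its other probe sets gave 0.13 and 0.16. Sp3, a close relative of Sp1, read 922, 488 and 725 against 552, 550 and 633 (−0.26, SE 0.19, adjusted p = 0.556), the wild-type pools being further apart than the groups. The 2 probe sets of Sp4 gave −0.15 and 0.26, with opposite signs. Sp7, the osteoblast factor also called osterix, stayed near the dim limit in every pool (19.0 to 45.4; 0.16, SE 0.36). Sp8 was dim in all pools (1.5 to 16) and was not tested.

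**Figure D2:**
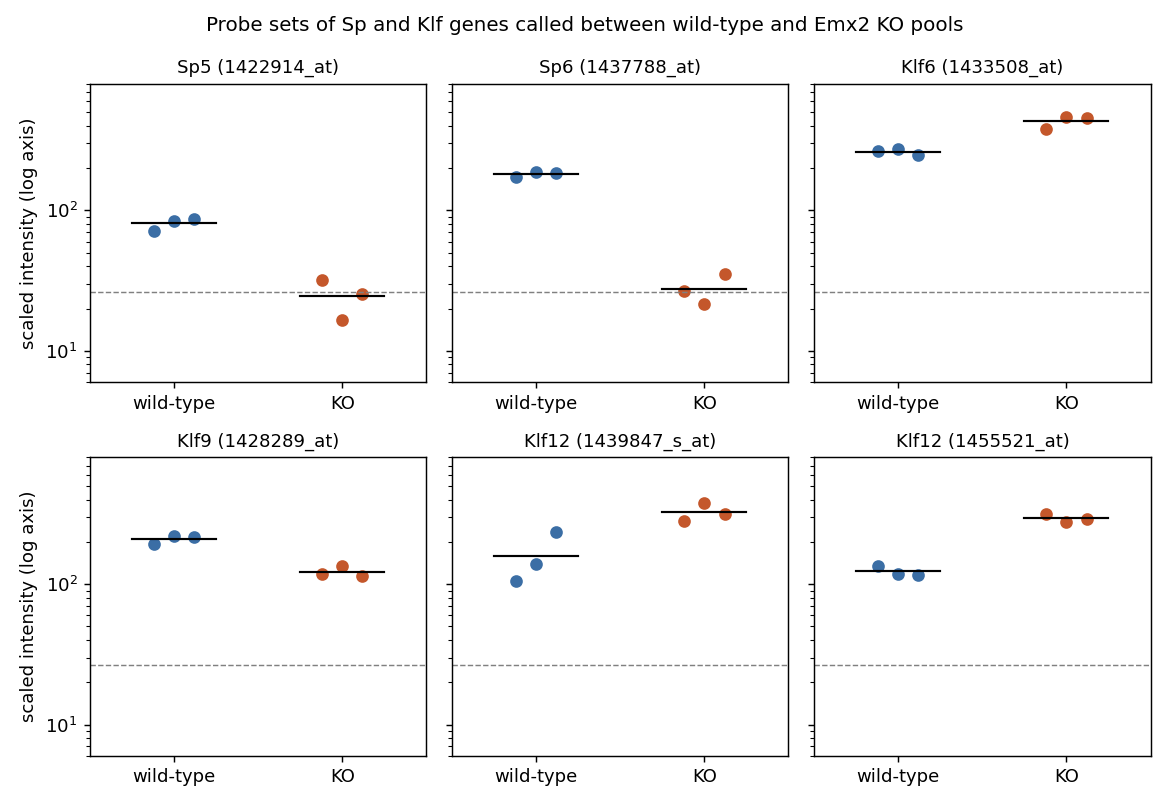
Scaled intensity (log axis) of the 6 called probe sets in each of 3 wild-type (blue) and 3 KO (orange) pools, with a line at each mean and a dashed line at the dim limit of 26.4. The groups do not overlap in any panel, and the KO values of Sp5 and Sp6 lie around the dim limit.

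Klf12, a repressor that acts through CtBP, rose. At probe set 1455521_at it read 135, 119 and 117 against 315, 277 and 293. The means were 124 ± 9.91 and 295 ± 19.2 (log2 fold change 1.26, SE 0.16, adjusted p = 0.000598), 2.39-fold higher in KO. The call held in all 6 fits with 1 pool left out and was lost with the mean of all Klf12 probe sets, dim ones included (0.75, adjusted p = 0.0788). Probe set 1439847_s_at read 106, 139 and 234 against 284, 376 and 315 (1.10, SE 0.25, adjusted p = 0.0223). Its wild-type pools were spread over more than the gap between the groups. This second call was lost without wild-type replicate 1 or 2 and without KO replicate 2 or 3, where the log2 fold change ran from 0.84 to 1.11, and also with no filter (adjusted p = 0.295) and no intensity trend (adjusted p = 0.12).

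A dimmer Klf12 probe set, 1439846_at, also had its KO pools above its wild-type pools, with 10.9, 22.9 and 37.1 against 44.1, 53.8 and 54.9. It did not pass (1.28, SE 0.41, adjusted p = 0.111), though it passed without wild-type replicate 3 (1.69, adjusted p = 0.0249). The remaining 2 read 8.89 or less in all pools and were not tested. All 3 tested Klf12 probe sets thus had a positive difference of similar size.

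Klf3, the other measured member of the CtBP-binding group and a repressor in fat and blood cells, gave no such difference. Its brightest probe set read 1480, 1490 and 1470 against 1360, 1150 and 1580 (−0.13, SE 0.12, adjusted p = 0.66). The 6 tested Klf3 probe sets ran from −0.18 to 0.17, 3 of them positive. A seventh, dim and untested, read 19.9, 11.8 and 24.5 against 26.4, 26.7 and 31.4.

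Among the activators, Klf6, an immediate-early gene induced by injury and known as a tumour suppressor, rose at 1 of its 5 probe sets. That probe set (1433508_at) read 264, 275 and 248 against 381, 461 and 459, with the groups apart. The means were 262 ± 13.8 and 434 ± 45.4 (log2 fold change 0.72, SE 0.14, adjusted p = 0.0106), 1.65-fold higher in KO. Another Klf6 probe set (1447448_s_at) gave a difference of like size but with overlapping groups: 285, 223 and 107 against 283, 327 and 306 (0.69, SE 0.28, adjusted p = 0.22). The other 3 gave 0.27, 0.01 and −0.25. The call was lost without KO replicate 2 (adjusted p = 0.0558) or KO replicate 3 (adjusted p = 0.0594), at 0.68 in both. With the values as deposited it was 0.81 and did not pass (adjusted p = 0.0655), nor did it with no filter (adjusted p = 0.0843) or with the mean of all Klf6 probe sets (0.29, adjusted p = 0.453).

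Klf7, a factor of neuronal and fat cell development, was higher in each KO pool at 1 probe set, with 219, 254 and 276 against 344, 360 and 335, but this did not pass (0.48, SE 0.15, adjusted p = 0.0971). Its 3 other probe sets gave 0.13, 0.23 and −0.04. Klf2, which keeps endothelium quiescent under blood flow, read 31.1, 31.8 and 41.5 against 50.2, 48.9 and 43.3. These groups did not overlap, yet the difference did not pass (0.46, SE 0.27, adjusted p = 0.439). Klf4, a pluripotency and epithelial barrier factor, overlapped between groups at its brighter probe set (62.8, 65.5 and 72.1 against 100, 67.4 and 85.2; 0.32, SE 0.23, adjusted p = 0.538). Its dim one was not tested, though its groups were apart (9.75, 8.71 and 3.48 against 11.7, 23.9 and 11.8; 0.76 with no filter, adjusted p = 0.468).

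Klf5, an activator in epithelial and smooth muscle cells, gave differing pictures by probe set. The tested one overlapped between groups (27.8, 33.9 and 47.4 against 44.7, 41.7 and 30.5; 0.12, SE 0.31). Another (1451739_at) lay just under the dim limit by its mean log2 value and was not tested, although its groups were apart, with 36.5, 30.9 and 35.7 against 21.3, 17.2 and 18.2. With no filter it gave −0.86 (SE 0.14, adjusted p = 0.122). The remaining Klf5 probe set read 11.3 or less in all pools and was not tested.

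Klf1, the master activator of globin genes in red cells, read 179, 135 and 299 against 169, 251 and 209 (0.10, SE 0.26, adjusted p = 0.896). Wild-type replicate 3 stood highest. Embryonic globins were bright in every pool, Hbb-bh1 reading between 12900 and 14400, and the sum given below is weighted to them. Hba-a1 was dim (1.22 to 14.9). Slc4a1, the anion exchanger of red cells, was also highest in wild-type replicate 3, with 573, 511 and 2290 against 1230, 1450 and 1210. Of 8 tested erythroid genes 0 were called (limma; unadjusted p under 0.05 for 1 higher and 0 lower), and their sum over 9 measured genes ran from 36100 to 38100 in wild-type and from 37000 to 38400 in KO pools. Without wild-type replicate 3, the pool highest for Klf1, 2 were called higher and 1 lower. By p, the nearest were Hba-x, an embryonic alpha-like globin (0.24, adjusted p = 0.11), and Hbb-y (−0.12, adjusted p = 0.463).

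Of the factors that bind Sin3A, Klf9 fell. This gene, induced by glucocorticoid and thyroid hormone, read 193, 220 and 215 against 118, 134 and 114 at probe set 1428289_at. The means were 210 ± 14.4 and 122 ± 10.7 (log2 fold change −0.78, SE 0.17, adjusted p = 0.0186), 1.71-fold lower in KO. The other bright probe sets had KO pools below wild-type pools too without passing: 222, 251 and 195 against 123, 112 and 176 (−0.72, SE 0.20, adjusted p = 0.0638), and 489, 700 and 392 against 268, 389 and 330 (−0.65, SE 0.20, adjusted p = 0.1). In the latter the nearest pools, at 392 and 389, almost met. The 4 remaining Klf9 probe sets read 29.3 or less in every pool and were not tested.

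The Klf9 call depended on single pools. It was lost without wild-type replicate 2 (adjusted p = 0.0619), KO replicate 1 (0.0661) and KO replicate 3 (0.0796), with log2 fold changes of −0.74, −0.76 and −0.73. It was also lost with values as deposited (−0.69, adjusted p = 0.256), with no filter (adjusted p = 0.072) and with the mean of all Klf9 probe sets, dim ones included (−0.21, adjusted p = 0.673).

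**Figure D3:**
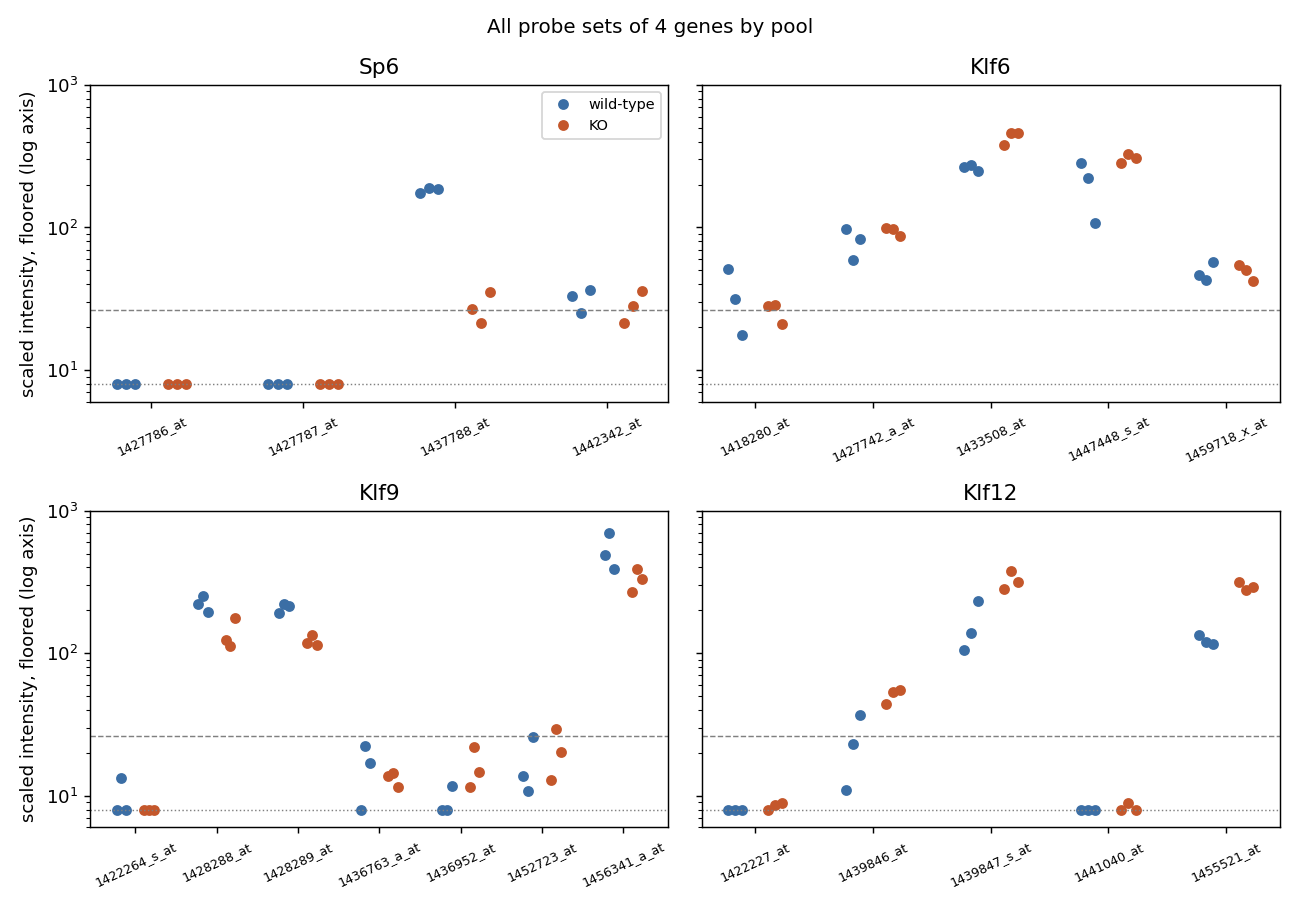
Scaled intensity (log axis, values under the floor of 7.99 drawn at it) of every probe set of Sp6, Klf6, Klf9 and Klf12 in 3 wild-type (blue) and 3 KO (orange) pools; dashed and dotted lines mark the dim limit of 26.4 and the floor. The 3 bright Klf9 probe sets lie lower and the 3 brighter Klf12 probe sets higher in KO, while 1 of 4 Sp6 probe sets separates the groups.

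The other Sin3A-binding factors had no called probe set. Klf13, a regulator of T cell cytokine genes and of heart development, was higher in each KO pool at 1 probe set (169, 163 and 160 against 201, 233 and 232; 0.43, SE 0.16, adjusted p = 0.168) and overlapped at another (0.16), while the remaining one was dim. Klf10, inducible by TGF beta, read 275, 224 and 160 against 207, 303 and 316 (0.34, SE 0.22, adjusted p = 0.488). Klf11, its close relative, gave −0.10 (SE 0.14) and Klf16 0.08 (SE 0.21). For Klf14, an intronless gene, the wild-type pools ran from 2.8 to 58.0 around KO pools of 42.0, 55.0 and 52.2 (1.02, SE 0.55, adjusted p = 0.384), a difference no larger than the wild-type spread. Klf15, a metabolic factor of muscle and liver, gave 0.00 (SE 0.29), and Klf17, a germ cell and early embryo factor, read 29.0 or less at all 3 probe sets and was not tested.

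Of the Egr genes, Egr2, Egr3 and Egr4 were left out as dim. Only Egr1 passed the filter, reading 70.1, 105 and 48.1 against 99.0, 121 and 103. These groups overlapped, and the difference did not pass (0.60, SE 0.27, adjusted p = 0.281). Both probe sets of Egr2, a hindbrain and Schwann cell factor, read 14.4 or less in all pools. Egr3, a factor of muscle spindles, read 37.9, 30.5 and 25 against 23.4, 18.6 and 23.4 at its brighter probe set, which was left out as dim (−0.50 with no filter, adjusted p = 0.469). Egr4 read 3.05, 3.81 and 4.98 against 18.4, 19.3 and 3.32, so that 2 KO pools stood above the floor and the third did not.

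Other immediate-early genes, which share inducers with Egr1, went both ways. Of 19 tested, 3 rose (Myc, Ccn2 and Fosl2), 3 fell (Jun, Gadd45b and Jund) and 13 were not called, with a median log2 fold change of 0.10. Myc, a growth regulator, read 93.5, 48.4 and 114 against 172, 181 and 158 (1.08, SE 0.28, adjusted p = 0.0434). Jun, an AP-1 subunit, read 508, 410 and 574 against 256, 354 and 270 (−0.76, SE 0.17, adjusted p = 0.0208). Gadd45b, a stress-induced growth arrest gene, fell by 0.76 (SE 0.19, adjusted p = 0.0335). Fos itself gave 0.00 (SE 0.32), and the summed signal of the list was 8550 to 9330 in wild-type and 7790 to 8360 in KO pools. That sum is weighted to the brightest gene of the list, Jund, which read 4480, 4580 and 3790 against 2800, 2810 and 2690. No direction for the list is read from it. The number called higher was 0 without wild-type replicate 1, KO replicate 1 or KO replicate 3 and 1 without wild-type replicate 2 or KO replicate 2, and the number called lower was 1 without wild-type replicate 1, KO replicate 1 or KO replicate 3. The split depended on the scaling too, with 1 higher and 4 lower under quantile normalization and 1 higher and 0 lower with values as deposited.

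Egr proteins are held in check by the corepressors Nab1 and Nab2, and Egr promoters are switched on by Srf with its partners. Of these 8 genes 0 were called (limma), with 3 higher and 0 lower at an unadjusted p under 0.05. Nearest were Elk3, a ternary complex factor (203, 258 and 185 against 315, 315 and 340; 0.60, SE 0.16, adjusted p = 0.0565), and Srf (0.43, SE 0.13, adjusted p = 0.0919). Without wild-type replicate 2 or 3 the count called higher was 1. Nab1 gave −0.10 and Nab2 −0.27.

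The cofactors through which Sp and Klf proteins work were bright and little changed. Of 13 tested 0 were called (limma), with 0 higher and 0 lower at an unadjusted p under 0.05. Sin3a, the scaffold bound by the Klf9 group, read 631, 697 and 623 against 652, 678 and 662 (0.03, SE 0.11). Ctbp1 and Ctbp2, bound by the Klf12 group, gave −0.04 (SE 0.07) and 0.01 (SE 0.12). By p, the nearest were Wwp1, a ubiquitin ligase that targets Klf proteins (0.22, adjusted p = 0.361), and Hdac1, a histone deacetylase (−0.16, adjusted p = 0.428).

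The 10 tested genes of the Wnt/beta-catenin list include both targets of the pathway, as Sp5 is, and DNA-binding partners of beta-catenin. Of these genes 1 rose, 1 fell and 8 were not called, with a median of 0.21. At an unadjusted p under 0.05 (limma) 2 were higher and 2 lower. For Tcf7 and T, also listed, no probe set was read. Notum, a secreted feedback inhibitor of Wnt proteins, read 132, 178 and 129 against 59.0, 52.6 and 103 (−1.08, SE 0.27, adjusted p = 0.0348), a call lost without wild-type replicate 1 or 2 and without KO replicate 1 or 2. Tcf7l1, a DNA-binding partner of beta-catenin, rose from 1910, 1780 and 1930 to 2350, 2640 and 2970 (0.50, SE 0.10, adjusted p = 0.0131), a call lost without KO replicate 3. Axin2, a widely used readout of the pathway, gave 0.07 (SE 0.17, adjusted p = 0.884), and Lef1, a DNA-binding partner of beta-catenin and itself a target, gave −0.38 (SE 0.14, adjusted p = 0.163).

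Of 13 genes of the limb bud and its apical ridge, listed beside Sp6 and Sp8, 7 were dim, Fgf4, Dlx5, Dlx6 and En1 among them. Of the 6 tested, 1 rose and 0 fell, with 1 higher and 2 lower at an unadjusted p under 0.05 (limma). Without wild-type replicate 3, 1 fell. Bmp4, a growth factor, read 433, 378 and 426 against 726, 703 and 702 (0.79, SE 0.12, adjusted p = 0.00221). Msx1, a homeobox target of Bmp signalling, was next by p (−0.64, SE 0.21, adjusted p = 0.113). Fgf8, the ridge signal that depends on Sp6 and Sp8, lay under the floor in all 6 pools.

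Markers of surface ectoderm, another site of Sp6 expression, are given beside its fall. Of 14 measured, 9 were tested, 0 rose and 1 fell (limma; unadjusted p under 0.05 for 0 higher and 1 lower), with a median of −0.23. Grhl3, a factor of the epidermal barrier, read 103, 85.5 and 69.2 against 42.7, 30.0 and 31.5 (−1.31, SE 0.27, adjusted p = 0.0127), a call lost without wild-type replicate 1 or KO replicate 3. Next by p was Esrp1, an epithelial splicing factor (−0.52, adjusted p = 0.336). The defining markers Trp63, Krt5, Krt14, Krt15 and Dlx3 were dim, and the summed signal ran from 974 to 1040 in wild-type and from 740 to 1000 in KO pools. Its part in the fall of Sp6 was not tested.

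Of 6 tested genes that respond to TGF beta, the inducer of Klf10 and Klf11, 2 rose and 0 fell (limma; 4 higher and 0 lower at an unadjusted p under 0.05). They were Smad6, an inhibitory Smad, and Ccn2, a matrix-associated signal also counted among the immediate-early genes above. Smad6 read 547, 708 and 563 against 882, 1090 and 1020 (0.72, SE 0.14, adjusted p = 0.00762). Ccn2 gave 0.64 (SE 0.14, adjusted p = 0.0206). The count called higher was 1 without any pool other than wild-type replicate 3. The list is not specific to TGF beta, and no direction of that pathway is read from it. Of 6 glucocorticoid-responsive genes, tested because Klf9 and Klf15 are induced by that hormone, 0 were called (limma; 0 higher and 1 lower at an unadjusted p under 0.05). Fkbp5, a chaperone that binds steroid receptors, read 1120, 1110 and 859 against 681, 782 and 764 and did not pass (−0.46, SE 0.13, adjusted p = 0.0652). Zbtb16 gave 0.57 (adjusted p = 0.357). Without wild-type replicate 3, 1 of the 6 fell.

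**Figure D4:**
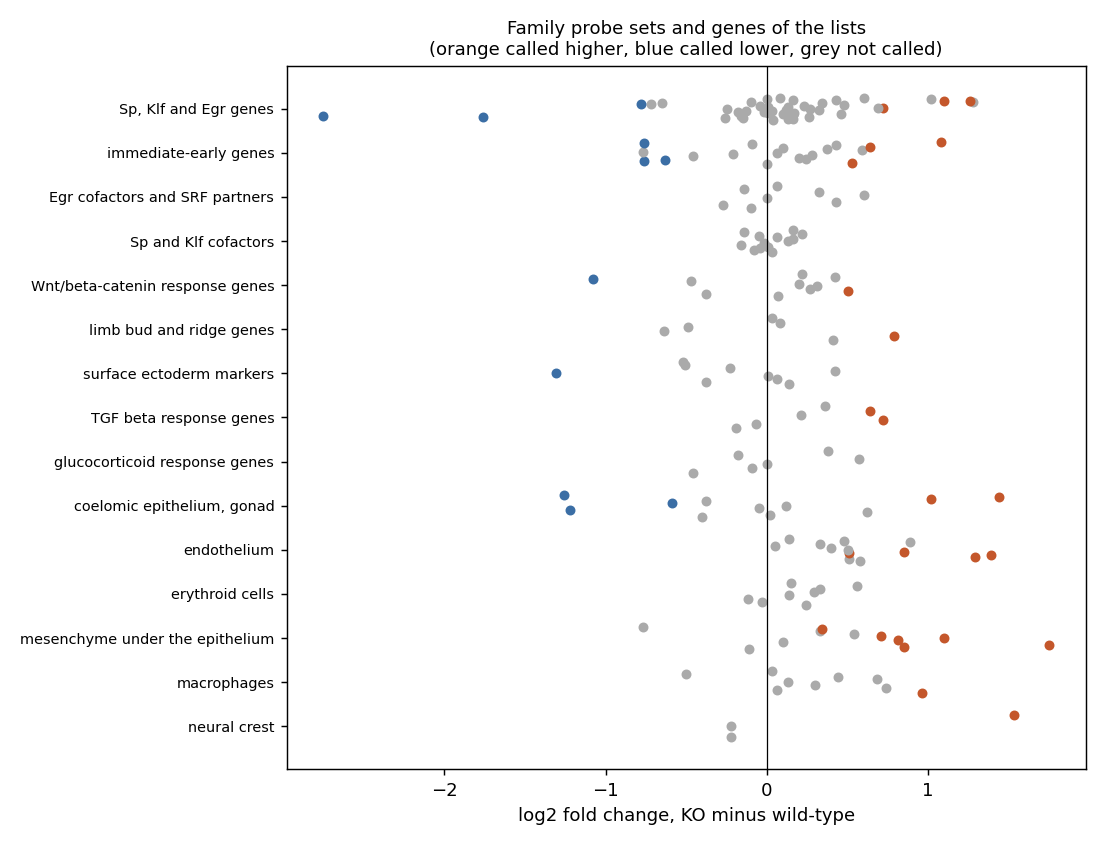
Log2 fold change (KO minus wild-type, horizontal axis) of the 43 tested family probe sets in the top line and of the tested genes of each list below, 1 point each, read by the brightest probe set; called points are orange (higher) or blue (lower). No point of the Sp and Klf cofactor list lies beyond 0.22 in either direction, and those of endothelium all lie above 0.

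Some markers of other cell types moved with the same pools and stand beside the rises of Klf12 and Klf6. Of 11 tested mesenchyme markers 6 rose and 0 fell (limma; 8 higher and 1 lower at an unadjusted p under 0.05), led by Twist1 (1.75), Postn (1.10) and Pdgfrb (0.85). Their sum over 13 genes was 14400 to 16200 in wild-type and 20900 to 22000 in KO pools, with Meox1 and Meox2 dim. Of 13 tested endothelial genes 4 rose and 0 fell (limma; 8 higher and 0 lower at an unadjusted p under 0.05), led by Emcn (1.39), Tek (1.29) and Cldn5 (0.85). Their sum over 15 genes was 1350 to 1820 and 2240 to 2610, with Pecam1 and Tie1 dim. The endothelial count was 2 under quantile normalization, 1 without KO replicate 1 and 2 without wild-type replicate 1 or 3 or KO replicate 2 or 3. Of 9 macrophage genes Csf1r alone rose (0.96, SE 0.20, adjusted p = 0.0126), a call lost without KO replicate 2. Their sum was 412 to 613 in wild-type and 681 to 837 in KO pools. It is weighted to Csf1r, the brightest, which read 223, 152 and 142 against 307, 389 and 298. Tyrobp was next by p (0.68, adjusted p = 0.328). Cd68 alone had a negative difference, lower in every KO pool without passing (−0.50, adjusted p = 0.362). Among 3 tested neural crest genes Ednrb rose (1.53), while Sox10 and Erbb3 each gave −0.22. Foxd3, dim and untested, read 12.6, 14.4 and 26.8 against 3.65, 11 and 5.56. The part of these cell types in the differences of Klf12, Klf6, Klf2 and Klf4 was not tested.

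Genes of the labelled epithelium went both ways beside the falls of Sp6, Sp5 and Klf9. Of 11 tested, 2 rose (Upk1b, 1.44, and Krt19, 1.02) and 3 fell (Aldh1a1, −1.26, Nr5a1, −1.22, and Krt8, −0.59). At an unadjusted p under 0.05 (limma) 3 were higher and 4 lower. Gata4 narrowly did not pass (0.62, SE 0.16, adjusted p = 0.0501), nor did Wt1 (−0.40, SE 0.11, adjusted p = 0.0715). With no intensity trend the number called lower was 1. The sum over the 12 genes of this epithelium was 19700 to 22600 in wild-type and 17000 to 19300 in KO pools. Its part in those falls was not tested.

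The genes that lie beside the called members on the chromosome, the nearest 2 on each side in RefSeq, were read where a probe set named them. For Sp6 these include Sp2, which was not analysed here, and Scrn2, whose difference did not pass (69.7, 58.9 and 93.2 against 65.5, 52.1 and 56.9; −0.33, SE 0.25, adjusted p = 0.566). Beside Klf9, Smc5, a subunit of a chromosome maintenance complex, read 896, 710 and 842 against 663, 632 and 634 and did not pass (−0.34, SE 0.12, adjusted p = 0.162). Myo3b, Gad1os and Erich2 beside Sp5 were dim and not tested. No neighbour of Klf6 or Klf12 was measured.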

How the data were processed

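Intensities were deposited by the authors as 1 linear value per probe set and array, and the submitters' processing notes name GCOS 1.2. The algorithm and scaling behind them are not given in the sources used here. Per the labels' protocols, 15 ng of total RNA per pool was amplified in 2 rounds and labelled with biotin. Such amplification favours sequence near the 3' end.

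Trimmed means (2% from each end) differed by up to 1.47 times between arrays, over the 5% set as the limit, so each array was scaled to 309.2. Values under the 20th percentile (7.99) were set to it. After log2, 64 control probe sets and the 40% with the lowest mean log2 were left out. The test was limma 3.58.1 under R 4.3.3 (KO against wild-type, eBayes with intensity trend, two-sided, Benjamini-Hochberg over 27022 probe sets). The procedure was tested on simulated arrays. A gene of a list is read by its brightest probe set, and up to 3 called genes per list, filled to 2 by p, are named. The sum over a list is weighted to its brightest genes. All members are accounted for, and pool values are given for those called, those with groups apart and a change of at least 1.5-fold, and further ones, some beyond that rule and chosen after their values were seen. The members and lists were chosen with earlier results of these data known. With 3 arrays per group, their number limits the precision.

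The alternatives were 3 other scalings, 2 other treatments of low values, 2 other filters, the replicate number as a block, no intensity trend, array weights, probe sets open to several transcripts left out, a mean per gene, and each pool left out.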

Additional observations from a re-analysis of the deposited data

How the results depend on the processing

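Over 18 alternatives, none of the 6 called family probe sets changed sign, and 34 of the 37 uncalled ones were never called. Of 741 values 717 kept their side of the threshold, 20 lost the call, 4 gained it and 0 reversed. Most of the 741 belong to the 37 uncalled probe sets, and all 20 losses fell on the 6 called ones. With 1 pool left out, Klf12 (1439847_s_at) was called in 2 of 6 fits, Klf9 (1428289_at) in 3 and Klf6 (1433508_at) in 4. Sp5 and Klf12 (1455521_at) were called in all 6. In 19 uncalled probe sets the sign turned somewhere without a call. The number of family probe sets called higher, 3, ranged from 1 to 4 with 1 pool left out, and was 1 with no filter. The number called lower, 3, was 1 with no filter, and 1 with the lowest 60% left out, where the dimmer Sp5 and Sp6 probe sets were no longer tested. With no filter only a Sp6 and a Klf12 probe set (1455521_at) of the families stayed called. With 1 mean per gene, 18 member genes were tested, 0 were higher and 1 (Sp5) was lower (limma; 3 and 1 at an unadjusted p under 0.05). Sp6 was not among the genes tested by their mean. Probe sets near the floor enter these means. Over all probe sets, the 1264 calls became 151 with no filter, 541 with no intensity trend and 499 genes with a mean per gene, and ranged from 721 (without wild-type replicate 1) to 1682 (without wild-type replicate 3) with 1 pool left out; they were 815, 834 and 790 without KO replicates 1, 2 and 3. With the replicate block the counts were 3 higher and 4 lower in the families and 1160 in all. The fourth was a Klf9 probe set (1456341_a_at, −0.65, adjusted p = 0.0493). Same-numbered pools did not deviate together (correlations of −0.07, 0.04 and −0.05), so the numbers were not taken as pairs. With no filter, the genes called higher were 0 for the immediate-early, Wnt, TGF beta, endothelium, macrophage and neural crest lists, 1 for the coelomic epithelium and 2 for mesenchyme, and those called lower were 0 for the immediate-early, Wnt, surface ectoderm and coelomic lists. With no intensity trend, 0 immediate-early, Wnt, TGF beta and macrophage genes, 1 endothelial and 3 mesenchyme genes were called higher. Signal over background limits Sp5, Sp6, Sp8, Klf17, Egr2, Egr3 and Egr4.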
